A study of Mus musculus with 4 samples.

Results

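Il7r, Bcl2, Foxp1, Ets1, Lef1, Tcf7, Klf2 and Satb1 are 8 genes tied to the quiescence and survival of resting T cells, and they were read by their symbols among the 33696 genes of the count tables. They were followed in CD4 and CD8 T cells of mouse liver, in T cell states gated on UMIs (unique molecular identifiers, 1 per captured transcript) of marker genes that do not include any of the 8. Male C57BL/6J mice, 7 weeks old when the diet began, received the FPC diet, named for its fructose, palmitate, cholesterol and trans-fat, which is used to induce fatty liver disease with inflammation, and no library came from mice on a standard diet. P-LC24 held mice given 0.05% cholesterol for 24 weeks and P-HC24 mice given 1.25% for 24 weeks. I-LC32 came from the low cholesterol mice after 8 more weeks at 0.05%, at week 32. I-HC32 came from the high cholesterol mice, which had 1.25% until week 24 and 0.05% for the last 8 weeks. Each library pooled 12 fine-needle aspiration (FNA) biopsies, 4 from each of 3 mice, and the same mice were sampled at both times. There was 1 library per condition, so no condition was tested against another, and diet, mice and handling cannot be told apart. Where 4 values stand in a sentence, they are in the order LC and HC at week 24, then LC and HC at week 32.

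Resting T cells are kept alive and out of the cell cycle by an active program. IL-7 binds a receptor made of IL7R and the common gamma chain, signals through JAK1, JAK3 and STAT5, and sustains BCL2, which blocks the mitochondrial path to apoptosis. TCF1 (the product of Tcf7) and LEF1 are HMG-box factors that maintain naive and memory identity, and SATB1 organizes chromatin in T lineage cells. FOXP1 and KLF2 restrain growth and activation, KLF2 also drives the trafficking gene S1pr1, and ETS1 is an ETS family factor needed for T cell survival and Il7r expression. In the liver, resident and chronically stimulated T cells leave this program to different degrees.

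The libraries held 50941106 to 89257239 UMIs, and 4930 to 6978 cells passed the filters in each. T cells were gated by Cd3 UMIs in 954 to 1505 cells per library, of which 114 to 272 were CD4 and 337 to 792 were CD8. Naive CD4 cells, with a UMI of a naive marker such as Ccr7 and none of 9 effector genes, numbered 84, 51, 116 and 91. Activated CD4 cells, with at least 2 of those 9 genes, numbered 37, 36, 103 and 116. Memory-like CD8 cells, with Ly6c2 and an effector gene but no Tox or Pdcd1, numbered 106, 157, 183 and 64, and exhausted-like CD8 cells, with at least 2 of Tox, Pdcd1 and Gzmk, numbered 149, 64, 224 and 142. The planned naive CD8 gate held 6, 22, 11 and 2 cells, so a wider gate was used that leaves out 2 of its excluded genes, Nkg7 and Id2. It was set after these numbers were known and held 49, 112, 65 and 29 cells. The summed level of a T cell marker list was 3110 to 6643 CPM (counts scaled to a common total per state and library, the usual counts-per-million) over these states, and that of a B cell list was 6.02 to 46.2 CPM. The T cell and B cell lists share genes with the gates. The exhausted-like list reached 2096 to 3778 CPM in exhausted-like cells and 56.5 to 87.5 in memory-like ones. It holds the gate genes Tox, Pdcd1 and Gzmk beside Lag3, Tigit, Havcr2 and Ctla4. The gates thus set part of this difference in advance, and it is no separate support for the name. The memory-like list (Ly6c2, Il2rb, Cxcr3, Ccl5, Eomes) went against the name of that state, since it reached 4986 to 8608 CPM in memory-like and 16118 to 25913 in exhausted-like cells, so memory-like is used here for the gate alone. Pairs of libraries shared 17 to 41 cell barcodes, and 24 of the 3137 CD4 and CD8 cells carried a barcode that another library also held. The sum of a state held 220901 to 1726934 UMIs in a library.

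Where the regulatory sequence of the 8 genes was given, it was searched for letters of the ETS, TCF and LEF, and KLF families, to which some of the 8 belong. STAT letters were searched as well, and no letters for FOXP1 or SATB1 were. RefSeq on GRCm38.p6 listed a start for 7 of the 8 genes, all but Ets1. The 250 bases before the first listed start were read, with the start to the right. Satb1 had 5 listed starts, Lef1 4, Foxp1 3 and Tcf7 2, and the later ones were not searched. Capitals mark a match, on either strand, to the ETS letters GGAAGT, the TCF and LEF letters CTTTG, the KLF letters CACCC or the STAT letters TTCNNNGAA. The promoter of Il7r is shown because the gene is the receptor of the group, those of Lef1 and Satb1 because these genes differed most between states, and that of Klf2 because it is by far the shortest of the genes.
Il7r, chr15:9529877-9530126, minus strand: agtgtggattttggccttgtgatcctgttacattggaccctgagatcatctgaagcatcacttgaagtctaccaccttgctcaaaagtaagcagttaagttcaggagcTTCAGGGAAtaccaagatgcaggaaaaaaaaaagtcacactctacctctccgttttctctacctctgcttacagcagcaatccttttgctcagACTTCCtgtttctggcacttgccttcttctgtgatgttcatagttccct
Lef1, chr3:131110047-131110296, plus strand: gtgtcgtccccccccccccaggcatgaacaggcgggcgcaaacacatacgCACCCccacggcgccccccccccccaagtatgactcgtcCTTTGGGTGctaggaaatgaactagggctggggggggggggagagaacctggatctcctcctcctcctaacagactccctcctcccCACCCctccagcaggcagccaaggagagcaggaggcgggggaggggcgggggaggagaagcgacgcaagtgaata
Satb1, chr17:51833291-51833540, minus strand: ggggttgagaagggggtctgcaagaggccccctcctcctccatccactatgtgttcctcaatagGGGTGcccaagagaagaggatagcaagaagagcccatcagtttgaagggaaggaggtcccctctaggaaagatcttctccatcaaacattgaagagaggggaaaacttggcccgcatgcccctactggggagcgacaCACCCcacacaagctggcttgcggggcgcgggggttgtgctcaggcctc
Klf2, chr8:72318812-72319061, plus strand: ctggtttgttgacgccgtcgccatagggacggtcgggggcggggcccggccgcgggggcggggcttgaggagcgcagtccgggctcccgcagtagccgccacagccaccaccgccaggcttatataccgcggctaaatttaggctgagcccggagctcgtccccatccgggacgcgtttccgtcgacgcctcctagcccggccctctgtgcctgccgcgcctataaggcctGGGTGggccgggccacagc
The ETS letters were found in Il7r alone of the 7 windows read, 49 bases before the start, and in 19.99% of 27025 promoters of the same length. The STAT letters, which read the same on both strands, were also found in Il7r alone, 142 bases before the start, and in 7.18% of all promoters. The KLF letters were found in 5 of the 7 genes (51.3% of all promoters) and the TCF and LEF letters in 2, Foxp1 and Lef1 (48.8% of all). In Lef1 the TCF and LEF match overlaps a KLF match. The Il7r window was the poorest of the 4 in G and C, at 44%, against 58% in Satb1, 66.4% in Lef1, 71.2% in Klf2 and a median of 52% over all promoters. These matches are letters in a window and no measurement of binding.

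The genes differed in how far they were restricted to T cells. Levels are given as CPM, the UMIs of a gene summed over the cells of a state and divided by all UMIs of that state in the library, and they are compared between states and not between genes. Il7r was at most 3.69 CPM in B cells of any library, Lef1 at most 7.66 and Tcf7 at most 2.10. NK cells held more, with Il7r at 96.6 to 248 CPM, Lef1 at 178 to 275 and Tcf7 at 78.6 to 118. In exhausted-like CD8 cells these were 366 to 741, 121 to 234 and 87.4 to 150, so Lef1 and Tcf7 overlapped with NK cells. The other genes were shared with B cells as well. Foxp1 reached 1840.2 to 2958 CPM in B cells and 372 to 795 in monocytes and macrophages, and Klf2 reached 1268 to 2136 and 1159 to 2921. Satb1 was 298 to 705 CPM in B cells and 863 to 905 in NK cells, where Ets1 was 624 to 909.8. After each cell had been thinned to 2000 UMIs, Il7r had a UMI in a median of 44.8% of exhausted-like cells over the 4 libraries and in 0.536% of B cells. Over the libraries these shares of Il7r were 23.8% to 56.3% in exhausted-like cells and 0.406% to 0.655% in B cells. Satb1 went the other way, with medians of 9.95% in exhausted-like and 47.0% in B cells. The part of free RNA in these shares was not tested. Before thinning, the median depth per cell was 5845.5 to 6390.5 UMIs in exhausted-like cells and 5811.5 to 8393 in B cells. Of the 8 genes, the mean number with a UMI in a thinned cell was 6.02 to 6.68 in naive CD4 cells over the libraries. It was 4.39 to 4.92 in activated CD4 cells, 5.87 to 6.41 in naive CD8 cells, 5.18 to 5.86 in memory-like cells and 3.03 to 4.01 in exhausted-like cells. The ranges of naive and activated CD4 cells did not overlap, nor did those of memory-like and exhausted-like cells.

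**Figure D1:**
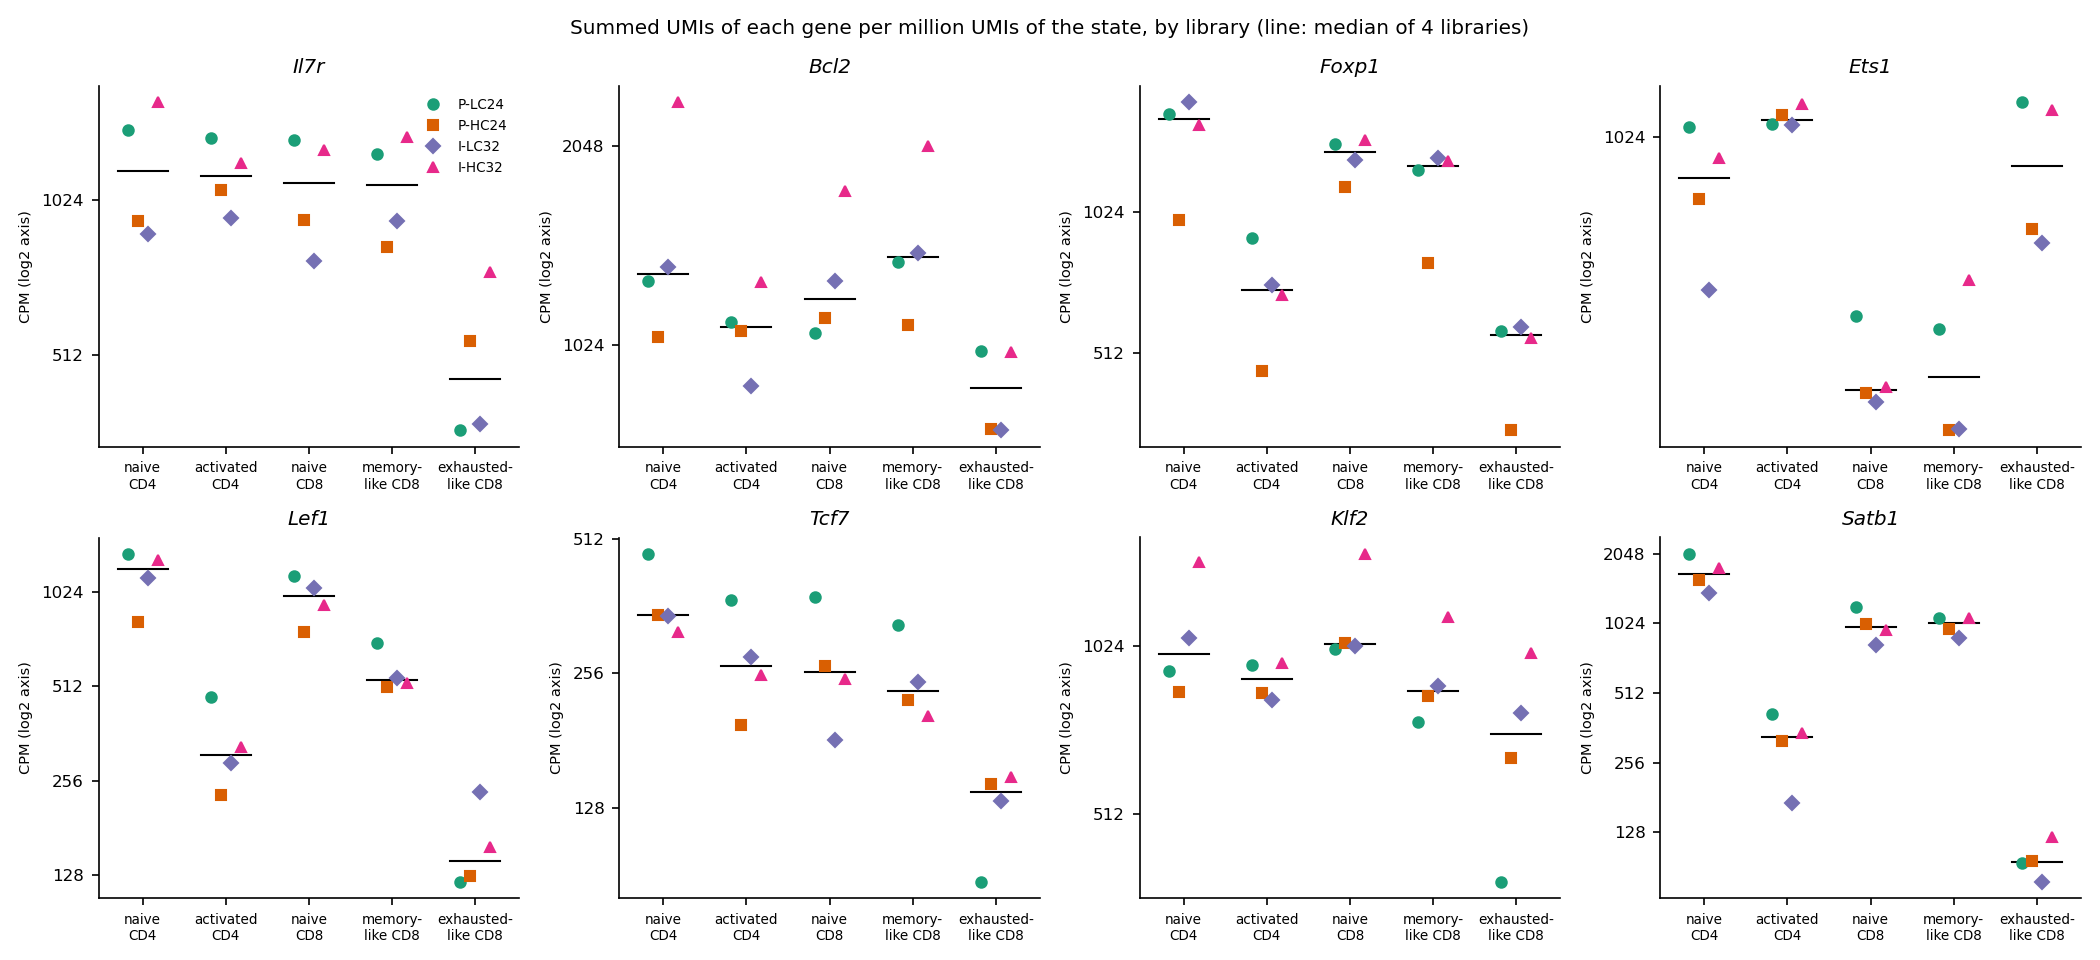
CPM of each gene (one panel per gene) in 5 T cell states, on a log2 axis, with a marker per library and a line at the median of the 4 libraries. Satb1 and Lef1 fall from naive to activated CD4 cells and again from memory-like to exhausted-like CD8 cells in every library, while Ets1 stays between 583 and 1094 CPM throughout.

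**Figure D2:**
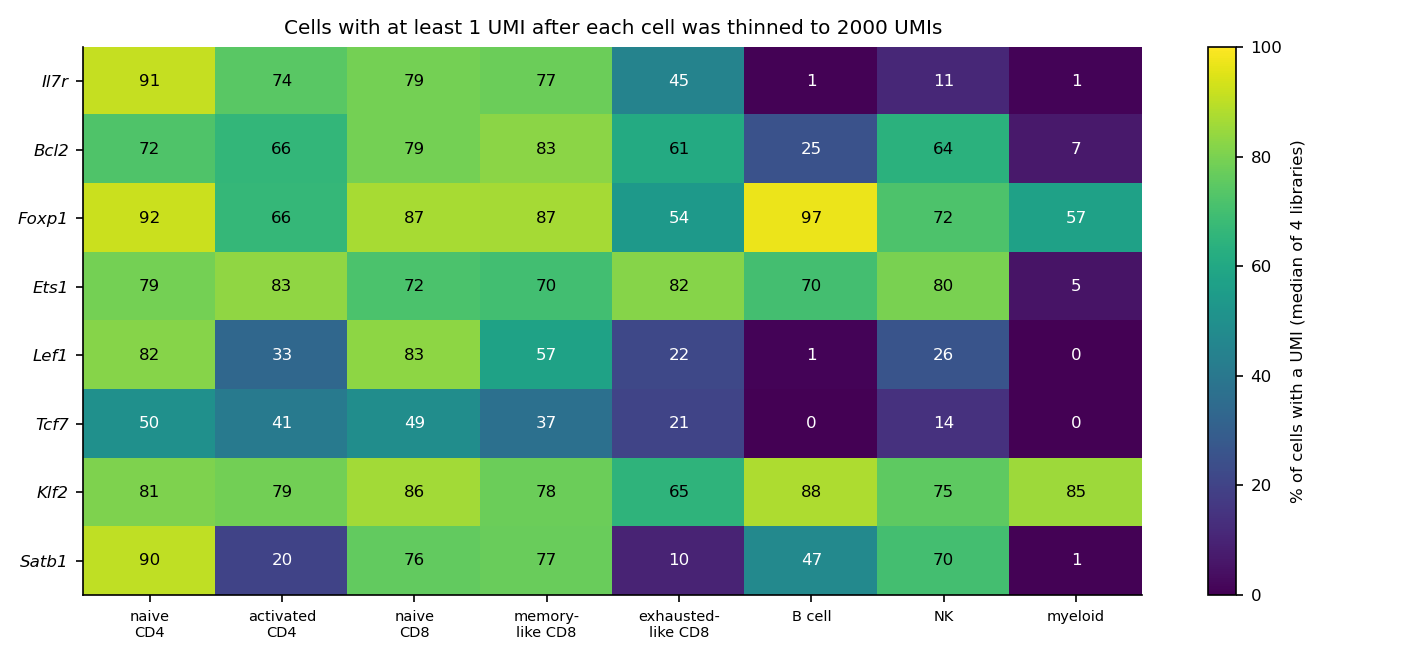
Share of cells (%, number and colour) with at least 1 UMI of each gene after thinning to 2000 UMIs, as the median of 4 libraries, by T cell state and in B, NK and myeloid cells. Il7r, Lef1 and Tcf7 are at most 1.04% in B and myeloid cells but 11.3%, 26.0% and 14.2% in NK cells. Satb1 goes from 90.3% in naive to 20.2% in activated CD4 cells.

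To ask how the genes change as T cells leave the resting state, states were compared within libraries with edgeR's quasi-likelihood test on summed UMIs, with the library as a term. Of the 8 genes, 6 were lower in activated than in naive CD4 cells and none was higher, where 8.65% of 9184 genes were lower and 10.4% higher at an adjusted p under 0.05. In exhausted-like against memory-like CD8 cells, 7 were lower and none higher, where 12.4% of genes were lower and 11.7% higher. In exhausted-like against naive CD8 cells, 7 were lower and Ets1 was higher, against 13.9% and 15.4% of 7752 genes. Memory-like and naive CD8 cells lay closer, with Lef1 lower and no gene higher, against 2.75% and 4.90% of genes. Between the naive states, Satb1 and Ets1 were lower in CD8 than in CD4 cells and none was higher, against 2.92% and 2.59%. The median of the 8 genes was -0.71 on the log2 scale in activated CD4 cells and -1.35 in exhausted-like against memory-like cells, where the median of all genes was near 0. The 4 libraries come from 2 groups of mice sampled 2 times. With the library as a term, the p-values measure only how far the differences between states vary among these libraries. That spread is estimated jointly over all states.

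Fold changes of this test are relative to totals scaled by TMM, which sets the typical gene to 0. With the plain UMI totals that CPM uses, the median of all genes rose to 0.27 in activated CD4 cells, to 0.33 in exhausted-like against memory-like cells and to 0.35 in exhausted-like against naive CD8 cells. Ratios of CPM therefore lie higher than the fold changes by about these shifts. With plain totals 4 of the 8 genes were lower in activated CD4 cells (Satb1, Lef1, Foxp1 and Bcl2), where 4.50% of all genes were lower and 19.2% higher. In exhausted-like against memory-like cells 7 were lower and Ets1 higher, where 6.53% of all genes were lower and 30.8% higher. Haemoglobin transcripts differed between states as well. They summed to 26411.5, 22241.5, 13912 and 218 CPM in naive and 1652, 297, 21402 and 132 in activated CD4 cells, so that naive cells had more in 3 of the 4 libraries. They were 5707, 1098, 3520 and 116 CPM in memory-like and 5269, 16947, 19529 and 239 in exhausted-like CD8 cells. Their part in the state contrasts was not tested.

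Satb1 showed the widest range between states of all 8 genes on the log2 scale. It lies on chromosome 17, 52043114 to 52140622, minus strand (GRCm39), and is protein-coding like the others. Its level in naive CD4 cells was 2045, 1577, 1388 and 1786 CPM, and in activated CD4 cells it was 414, 318, 171 and 344. Every naive level was thus more than the highest activated level, and the lowest of each set was in I-LC32. The log2 fold change was -2.78 ± 0.12 (SE, edgeR adjusted p = 4.17e-17). Here and below the SE is derived, as the absolute fold change divided by the square root of the F statistic of the test. In memory-like CD8 cells Satb1 was 1076, 972, 889 and 1086 CPM and in exhausted-like cells 94.6, 95.9, 78.2 and 122, where the last 4 values rest on 41 to 133 UMIs each. This is a fold change of -3.68 ± 0.13 (edgeR adjusted p = 8.88e-20), and the 4 libraries lay between -3.51 and -3.15 as ratios of CPM. Naive and memory-like CD8 cells did not differ beyond their spread (-0.01 ± 0.11, edgeR adjusted p = 0.983). Satb1 was lower in naive CD8 cells, at 1201, 1015, 829 and 955 CPM, than in naive CD4 cells (-0.72 ± 0.11, edgeR adjusted p = 2.34e-05).

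Lef1 was also lower in activated CD4 and exhausted-like CD8 cells, and Tcf7 less so. Lef1 (chromosome 3, 130903919 to 131018005, plus strand) was 1359, 824, 1141 and 1297 CPM in naive CD4 cells and 473, 230.2, 292 and 327 in activated ones. The difference was -2.10 ± 0.16 (edgeR adjusted p = 7.68e-12). Along the CD8 states Lef1 went down in steps, from 1154, 765, 1059 and 933 CPM in naive through 705, 512, 546 and 525 in memory-like to 121, 126, 234 and 157 in exhausted-like cells. It was the only gene of the 8 lower in memory-like than in naive CD8 cells (-0.78 ± 0.14, edgeR adjusted p = 1.18e-04), and it fell by another 2.12 ± 0.16 in exhausted-like cells (edgeR adjusted p = 4.26e-12). Tcf7 (chromosome 11, 52143107 to 52174619, minus strand) was 474, 346, 344 and 316 CPM in naive CD4 cells and 375, 197, 279 and 254 in activated ones. The ranges overlapped, although the activated level was lower in each of the 4 libraries (-0.69 ± 0.16, edgeR adjusted p = 0.00194). This call was lost with plain totals (-0.41, edgeR adjusted p = 0.0560) and with gates on thinned cells (-0.73). In CD8 cells Tcf7 was 329, 223, 244 and 205 CPM in memory-like and 87.4, 145, 133 and 149.9 in exhausted-like cells (-1.27 ± 0.16, edgeR adjusted p = 2.00e-07), and P-LC24 had both the highest memory-like and the lowest exhausted-like level.

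Foxp1 and Klf2, the transcription factors that restrain activation, differed in size. Foxp1 (chromosome 6, 98902299 to 99499685, minus strand) was 1655, 984, 1749 and 1568 CPM in naive CD4 cells and 899, 469, 714 and 679 in activated ones (-1.40 ± 0.09, edgeR adjusted p = 4.71e-13). It was 1255, 796, 1331 and 1309.8 in memory-like and 569.6, 351, 582 and 552 in exhausted-like CD8 cells (-1.50 ± 0.09, edgeR adjusted p = 5.42e-14). P-HC24 was the lowest library in each of these 4 states, yet the ratio of exhausted-like to memory-like cells was nearly the same in all libraries, -1.25 to -1.14. Klf2 (chromosome 8, 73072726 to 73075502, plus strand) was 925, 846, 1062 and 1455 CPM in naive CD4 cells and 946, 845, 819 and 956 in activated ones. The libraries were not alike, since the ratio of CPM was -0.61 in I-HC32 and 0.03 in P-LC24. The fold change of -0.53 ± 0.13 (edgeR adjusted p = 0.00320) was no longer called without I-HC32 (-0.44) or with plain totals (-0.24, edgeR adjusted p = 0.189). Klf2 was 748, 832, 869.8 and 1157 CPM in memory-like and 386, 646, 778 and 995 in exhausted-like cells (-0.70 ± 0.13, edgeR adjusted p = 7.43e-05), lower in all 4 libraries and most so in P-LC24.

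Il7r and Bcl2, the receptor and the survival factor it sustains, separated CD8 states more than CD4 states. Il7r (chromosome 15, 9505874 to 9530262, minus strand) was 1399.5, 931, 879 and 1582 CPM in naive CD4 cells and 1352, 1071, 945 and 1207 in activated ones. The activated level was lower in 2 libraries and higher in 2, and the fold change of -0.33 ± 0.13 missed the threshold (edgeR adjusted p = 0.0908). In memory-like CD8 cells Il7r was 1258, 830.1, 930.0 and 1359 CPM and in exhausted-like cells 366, 545, 377 and 741. It was lower in the exhausted-like cells of all 4 libraries (-1.43 ± 0.13, edgeR adjusted p = 5.32e-10), with log2 ratios of CPM from -1.78 to -0.61. Bcl2 (chromosome 1, 106465908 to 106642060, minus strand) was 1279, 1052, 1344 and 2388 CPM in naive CD4 cells and 1108, 1076, 886 and 1277 in activated ones. I-HC32 stood above the other libraries in the naive state, and in P-HC24 the states hardly differed (0.03 as a ratio of CPM), with a fold change over libraries of -0.72 ± 0.11 (edgeR adjusted p = 5.06e-06). In memory-like CD8 cells Bcl2 was 1369.6, 1099.5, 1412 and 2054 CPM and in exhausted-like cells 1003, 763, 759.8 and 998 (-1.03 ± 0.11, edgeR adjusted p = 2.51e-09). Neither gene differed between memory-like and naive CD8 cells beyond the spread (Il7r 0.00 ± 0.13 and Bcl2 0.15 ± 0.11).

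Ets1 was the exception. On chromosome 9, 32547517 to 32669116, plus strand, it was 1043, 908, 762 and 984 CPM in naive CD4 cells and 1049, 1067, 1047 and 1090.1 in activated ones. The activated levels were higher in each library as CPM, while the TMM-scaled fold change was -0.06 ± 0.10 (edgeR adjusted p = 0.733) and turned to 0.23 with plain totals (edgeR adjusted p = 0.0605). In CD8 cells Ets1 was 708, 583, 584 and 778 CPM in memory-like and 1094, 858, 834 and 1078 in exhausted-like cells, higher in the exhausted-like cells of all 4 libraries by 0.47 to 0.63 as a ratio of CPM. Relative to the typical gene this was 0.24 ± 0.09 (edgeR adjusted p = 0.0661) against memory-like and 0.26 ± 0.10 (edgeR adjusted p = 0.0436) against naive CD8 cells. The second call was lost when any 1 of the 4 libraries was left out (0.15 to 0.31). Naive CD8 cells had less Ets1 than naive CD4 cells, at 726, 627, 615 and 634 CPM (-0.45 ± 0.10, edgeR adjusted p = 0.00330), a call that was lost without P-HC24.

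**Figure D3:**
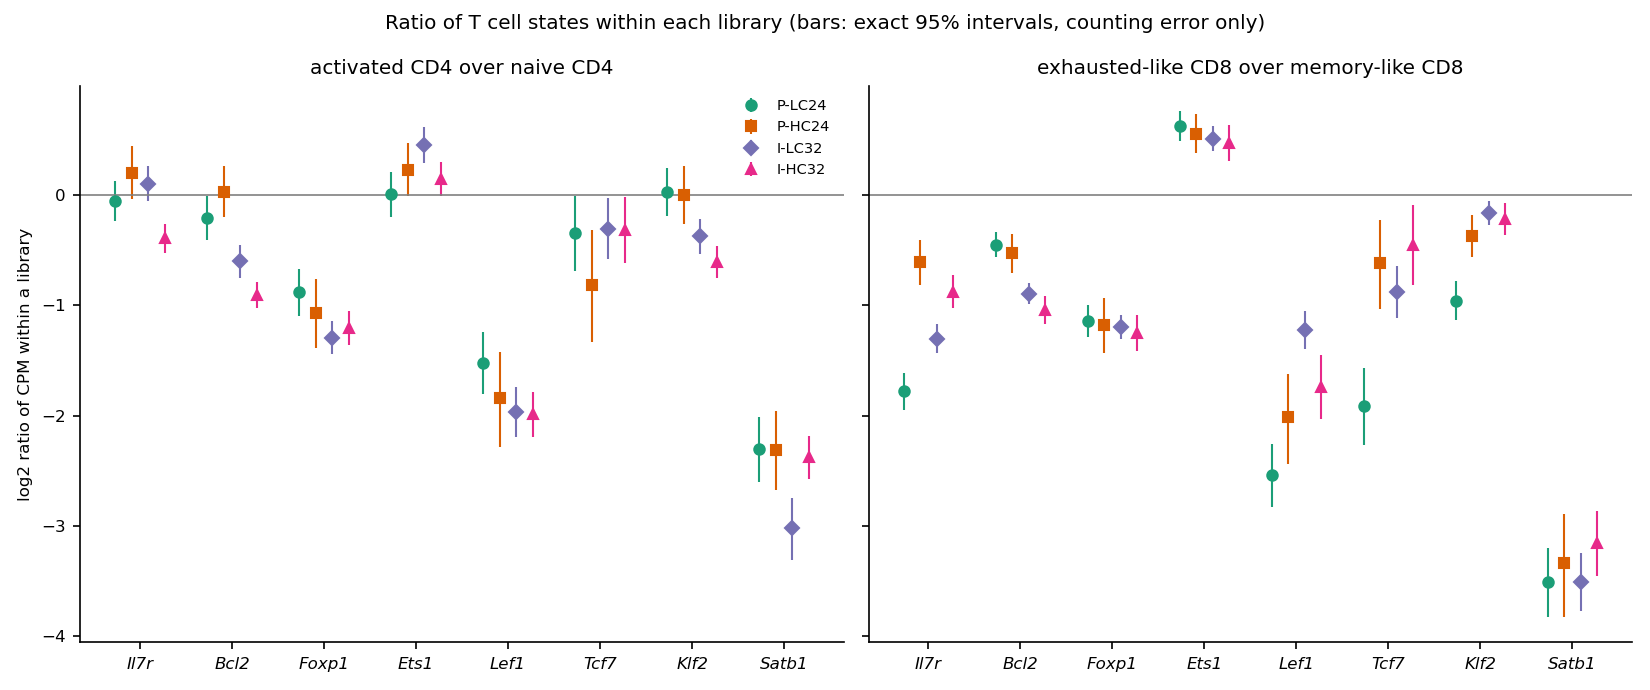
Log2 ratio of CPM between states within each library (activated over naive CD4, left, and exhausted-like over memory-like CD8, right), one marker per library with exact 95% intervals for counting error only. Satb1, Lef1 and Foxp1 lie below 0 in all libraries in both panels. Ets1 lies above 0, but on the left its interval is clear of 0 in I-LC32 alone. Il7r spreads from -1.78 in P-LC24 to -0.61 in P-HC24 on the right.

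Across the 20 sums of 5 states and 4 libraries, Foxp1, Lef1 and Satb1 varied together, with Pearson's r of 0.93 for Lef1 with Foxp1 and with Satb1 and 0.88 for Foxp1 with Satb1, on log2(CPM + 10). Il7r was most like Tcf7 among the 8 genes (0.82), and Ets1 ran against Foxp1 (-0.46). These sums share libraries and depths, so the values are descriptions. Of all genes with a mean of at least 50 CPM, the 3 most like Lef1 were Actn1 (0.97), Rapgef6 (0.94) and Patj (0.94). For Satb1 they included Gm56730 (0.93) and Lef1, and for Foxp1 they were Sh3bp5 (0.95), Cmah (0.94) and Lef1. For Tcf7 they were Il6ra (0.90), St8sia1 (0.86) and Pecam1 (0.85), and for Il7r Ssh2 (0.88), Gm20186 (0.87) and Birc3 (0.86). For Bcl2 they were Nin (0.88), Ezr (0.87) and Fam169b (0.84), for Klf2 Tsc22d3 (0.90), Elovl6 (0.80) and Aff3 (0.79), and for Ets1 Oip5os1 (0.89), the gate gene Tox (0.88) and Tmem50a (0.87).

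The genes around the 8 in the same pathways moved less evenly. The counts stand beside the shares of all genes in the same contrast. These were 8.65% lower and 10.4% higher in activated CD4 cells and 12.4% and 11.7% in exhausted-like against memory-like cells. Of 25 other quiescence genes, 12 were lower and 1 higher in activated than in naive CD4 cells, with a median of -0.43. The largest changes there were in Pik3ip1, an inhibitor of PI3K (-1.51 ± 0.28, edgeR adjusted p = 9.93e-05), and Bach2, a repressor of effector genes (-1.34 ± 0.12, edgeR adjusted p = 6.11e-10). In exhausted-like against memory-like CD8 cells 13 were lower and 4 higher, led by Il6ra, the IL-6 receptor (-3.39 ± 0.29, edgeR adjusted p = 9.59e-11), and Myb (-1.60 ± 0.28, edgeR adjusted p = 3.85e-05). IL-7 receptor signalling genes went both ways, with 3 lower and 4 higher of 14 tested in activated CD4 cells and 6 lower and 3 higher in exhausted-like against memory-like cells. In the latter Cish, a feedback inhibitor induced by STAT5, was higher (1.91 ± 0.38, edgeR adjusted p = 2.06e-04) and the kinase gene Pim2 lower (-1.57 ± 0.19, edgeR adjusted p = 6.27e-08). In activated CD4 cells the largest were Ptpn11 (1.62 ± 0.22) and Cish (1.51 ± 0.41). Relatives of Bcl2 also went both ways, 2 lower and 4 higher of 11 in each of these contrasts. Bcl2a1d, an anti-apoptotic relative with near-identical copies that could share reads, was higher in both (3.98 ± 0.58 and 2.64 ± 0.33), as was the pro-apoptotic Pmaip1 in activated CD4 cells (2.92 ± 0.63).

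Among partners of TCF1 and LEF1, 2 of 9 were lower in each of these contrasts, with 2 higher in activated CD4 and 1 higher in exhausted-like cells, where 8.65% and 12.4% of all genes were lower and 10.4% and 11.7% higher. The corepressor gene Tle1 was lower in exhausted-like than in memory-like cells (-3.76 ± 0.69, edgeR adjusted p = 7.46e-05), while Bcl9 was lower (-1.73 ± 0.47) and Axin2 higher (1.21 ± 0.35) in activated CD4 cells. Of 8 relatives of the transcription factors, 1 was lower and 4 higher in activated CD4 cells and 2 were lower and 2 higher in exhausted-like cells, and Klf7 was lower in both (-1.15 ± 0.20 and -1.70 ± 0.20). In cell cycle genes, 6 of 10 were higher in activated CD4 cells, among them Top2a (4.01 ± 0.49) and Mki67 (3.53 ± 0.80), and all 10 were higher in exhausted-like against memory-like cells. Immediate early genes were lower in 7 of 13 there, led by Jun (-1.93 ± 0.17) and Zfp36 (-1.19 ± 0.19). In memory-like against naive CD8 cells, 9 of 24 quiescence genes were lower and none higher, where 2.75% of all genes were lower and 4.90% higher. In naive CD8 against naive CD4 cells 9 of 24 were lower and 1 higher, led by Runx1 (-1.28 ± 0.14). There 2.92% of all genes were lower and 2.59% higher. The counts come from the same tests over all genes, whose median was near 0, and the lists were chosen with earlier results known. Between conditions, with ratios of CPM counted from 1.2-fold, 9 of 21 quiescence genes were higher and 2 lower in naive CD4 cells in Int, where 24.3% of all compared genes were higher and 16.9% lower. In Prog 10 of 19 were lower and 1 higher, where 44.8% of all were lower, 19.1% higher and the median gene was at -0.19.

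In Prog, P-HC24 was set against P-LC24, to ask how the genes differ with high cholesterol intake, in the 3 states with at least 50 cells in both libraries. Values are log2 ratios of CPM with exact 95% intervals for counting error, and a ratio counts as lower or higher from 1.2-fold. Of 24 ratios, 15 were lower in P-HC24 and 3 were higher. In naive CD4 cells 6 of the 8 genes were lower and none higher, where 44.8% of 1333 compared genes were lower and 19.1% higher. In memory-like CD8 cells 6 were lower and none higher, against 41.0% and 17.6% of 3265 genes, and in exhausted-like CD8 cells 3 were lower and 3 higher, against 51.7% and 18.4% of 2429. A large part of all genes was thus lower in P-HC24 as well. The median mitochondrial share per cell was higher in P-HC24 than in P-LC24, at 4.63% against 3.50% in naive CD4, 5.04% against 4.00% in memory-like and 4.26% against 2.91% in exhausted-like cells. Of the immediate early genes, which respond to stress and handling, 6 of 7 were higher in naive CD4 cells, 6 of 10 higher and 1 lower in memory-like cells, and 3 of 7 higher and 3 lower in exhausted-like cells. The part of either in these ratios was not tested. The median gene was at -0.19, -0.16 and -0.28 in the 3 states, and relative to it 4, 4 and 1 of the 8 genes were lower and 0, 1 and 5 higher.

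Foxp1 was lower in P-HC24 in all 3 states, at -0.75 (-0.93 to -0.58) in naive CD4, -0.66 (-0.77 to -0.55) in memory-like and -0.70 (-0.97 to -0.44) in exhausted-like cells. Bcl2 was lower in all 3 too, at -0.28, -0.32 and -0.40. Il7r was -0.59 (-0.77 to -0.41) in naive CD4 and -0.60 (-0.71 to -0.49) in memory-like cells, and 0.57 (0.33 to 0.82) in exhausted-like cells. Tcf7 had the same signs, at -0.45 (-0.77 to -0.15), -0.56 (-0.78 to -0.35) and 0.73 (0.23 to 1.22). Klf2 was within 1.2-fold in naive CD4 (-0.13) and memory-like cells (0.15) and was 0.74 (0.51 to 0.97) in exhausted-like cells. Lef1 was -0.72 (-0.92 to -0.53) in naive CD4, -0.46 in memory-like and 0.06 in exhausted-like cells. Satb1 was past 1.2-fold in naive CD4 cells alone (-0.37, -0.52 to -0.23), and Ets1 in both CD8 states (-0.28 and -0.35). Exhausted-like cells of P-LC24 had the lowest levels of Il7r, Tcf7 and Klf2 of all libraries, so those 3 higher ratios rest on that library too.

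The length of a gene moved with these ratios. Among all compared genes in Prog, the median ratio was 0.23, 0.19 and 0.20 for genes under 10 kb in naive CD4, memory-like and exhausted-like cells. It was -0.01, -0.05 and -0.16 for genes of 10 to 50 kb and -0.50, -0.40 and -0.58 for genes of 50 kb and longer. Of the 8 genes, Foxp1 (597 kb), Bcl2 (176 kb), Ets1 (122 kb), Lef1 (114 kb) and Satb1 (97.5 kb) are in the longest class, Tcf7 (31.5 kb) and Il7r (24.4 kb) in the middle one, and Klf2 (2.78 kb) is in the shortest. Relative to the median of genes on the same side of 50 kb, a comparison added after seeing the data, 2, 2 and 0 of the 8 genes were lower in the 3 states and 1, 0 and 5 higher. Il7r and Tcf7 kept their ratios on this scale, at -0.68 and -0.54 in naive CD4 and -0.63 and -0.59 in memory-like cells. Foxp1 went to -0.25, -0.26 and -0.12, Lef1 to -0.22, -0.07 and 0.64, and Bcl2 turned to 0.22, 0.08 and 0.19. In Int the class medians lay between -0.07 and 0.08. What the length trend comes from was not tested. A myeloid marker list also moved with the condition, at 14.2 to 39.8 CPM in the 5 states of the LC libraries and 76.5 to 219.5 in those of the HC libraries. All of its markers but Lyz2 are genes whose summed UMIs the T cell gate caps in each cell, so the gate limits this sum. Of its 6 markers, 2 to 5 had a UMI in a state of the LC libraries, 3 to 6 in P-HC24 and 4 to 6 in I-HC32. Its part in the results was not tested. Free RNA was estimated from the B cell transcripts Igkc and Ighm, with the profile of the whole library, and not from myeloid genes. With this estimate subtracted, Klf2 was 0.44 in place of 0.45 in naive CD4 cells in Int. It was 0.72 in place of 0.74 in exhausted-like cells in Prog, and the other genes are not given on this scale.

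**Figure D4:**
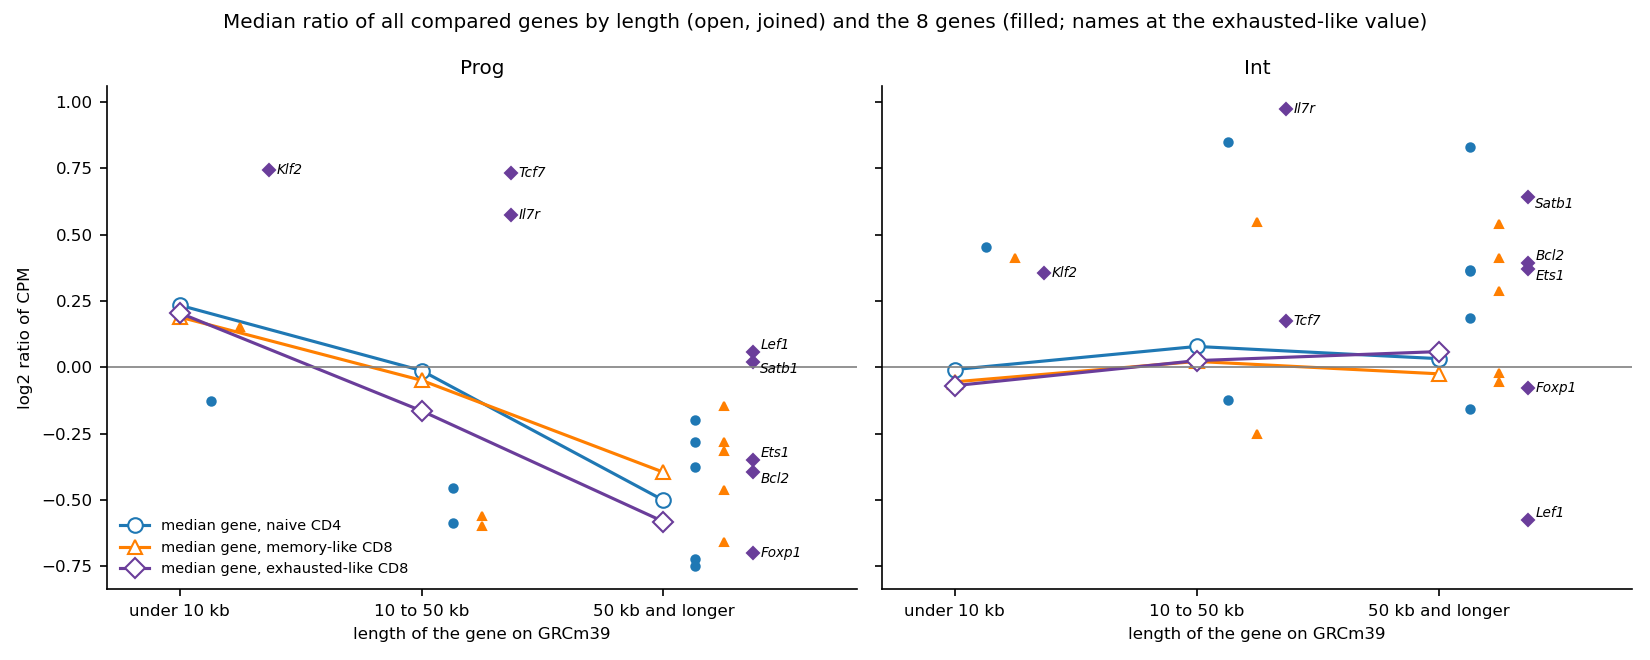
Log2 ratio of CPM in Prog (left) and Int (right) by length of the gene, as the median of all compared genes (open markers, joined) and for the 8 genes (filled, beside their class) in 3 states. The medians fall from 0.23 to -0.50 in naive CD4 cells in Prog and are flat in Int, and Il7r and Tcf7 lie below the median of their class in naive CD4 and memory-like cells in Prog.

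In Int, I-HC32 was set against I-LC32, to ask how the genes differ after the high cholesterol mice had been moved to low cholesterol. Of 32 ratios in 4 states, 18 were higher in I-HC32 and 1 was lower. In naive CD4 cells 5 of the 8 genes were higher and none lower, where 24.3% of 1888 genes were higher and 16.9% lower. In activated CD4 cells 3 were higher and none lower, against 22.4% and 16.6% of 2586 genes. In memory-like CD8 cells 5 were higher and none lower, against 18.9% and 21.5% of 3244 genes, and in exhausted-like cells 5 were higher and 1 lower, against 22.3% and 19.5% of 4138. The counts were the same relative to the median gene and to genes on the same side of 50 kb. The median mitochondrial share per cell was lower in I-HC32 in all 4 states. In the order of these states it was 3.31%, 3.17%, 4.12% and 3.37%, against 4.04%, 3.99%, 4.64% and 4.00% in I-LC32. Of the immediate early genes, 11 of 12 were higher in activated CD4 and 8 of 8 in exhausted-like cells. In naive CD4 cells 2 of 8 were higher and 2 lower, and in memory-like cells 2 of 9 higher and 4 lower. The part of either in these ratios was not tested.

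Il7r was higher in I-HC32 in all 4 states, by 0.85 (0.70 to 1.00) in naive CD4, 0.35 (0.21 to 0.50) in activated CD4, 0.55 (0.42 to 0.67) in memory-like and 0.97 (0.82 to 1.13) in exhausted-like cells. Bcl2 was higher in all 4 as well, by 0.83 (0.71 to 0.95), 0.53 (0.38 to 0.67), 0.54 (0.44 to 0.64) and 0.39 (0.27 to 0.52). Satb1 was the third gene higher throughout, by 0.36, 1.01 (0.69 to 1.33), 0.29 and 0.64. Klf2 was higher in naive CD4 (0.45), memory-like (0.41) and exhausted-like cells (0.35), and Ets1 in the same 3 states (0.37, 0.41 and 0.37). Foxp1, at -0.16 to -0.02, and Tcf7, at -0.25 to 0.17, passed 1.2-fold in no state. Lef1 was within 1.2-fold in 3 states and was lower in exhausted-like cells (-0.57, -0.86 to -0.30). The receptor and the survival gene were thus higher while the HMG-box factors were not, in these libraries. Where the gates were applied to cells thinned to 3000 UMIs, Il7r kept a ratio past 1.2-fold in exhausted-like cells (0.65), while Satb1 went to 0.05 in naive and 0.14 in activated CD4 cells and Bcl2 to 0.31 and Klf2 to 0.14 in naive CD4 cells. Haemoglobin transcripts, 3 genes, summed to 13912 CPM in naive CD4 cells of I-LC32 and 218 in I-HC32, and their part in the result was not tested.

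**Figure D5:**
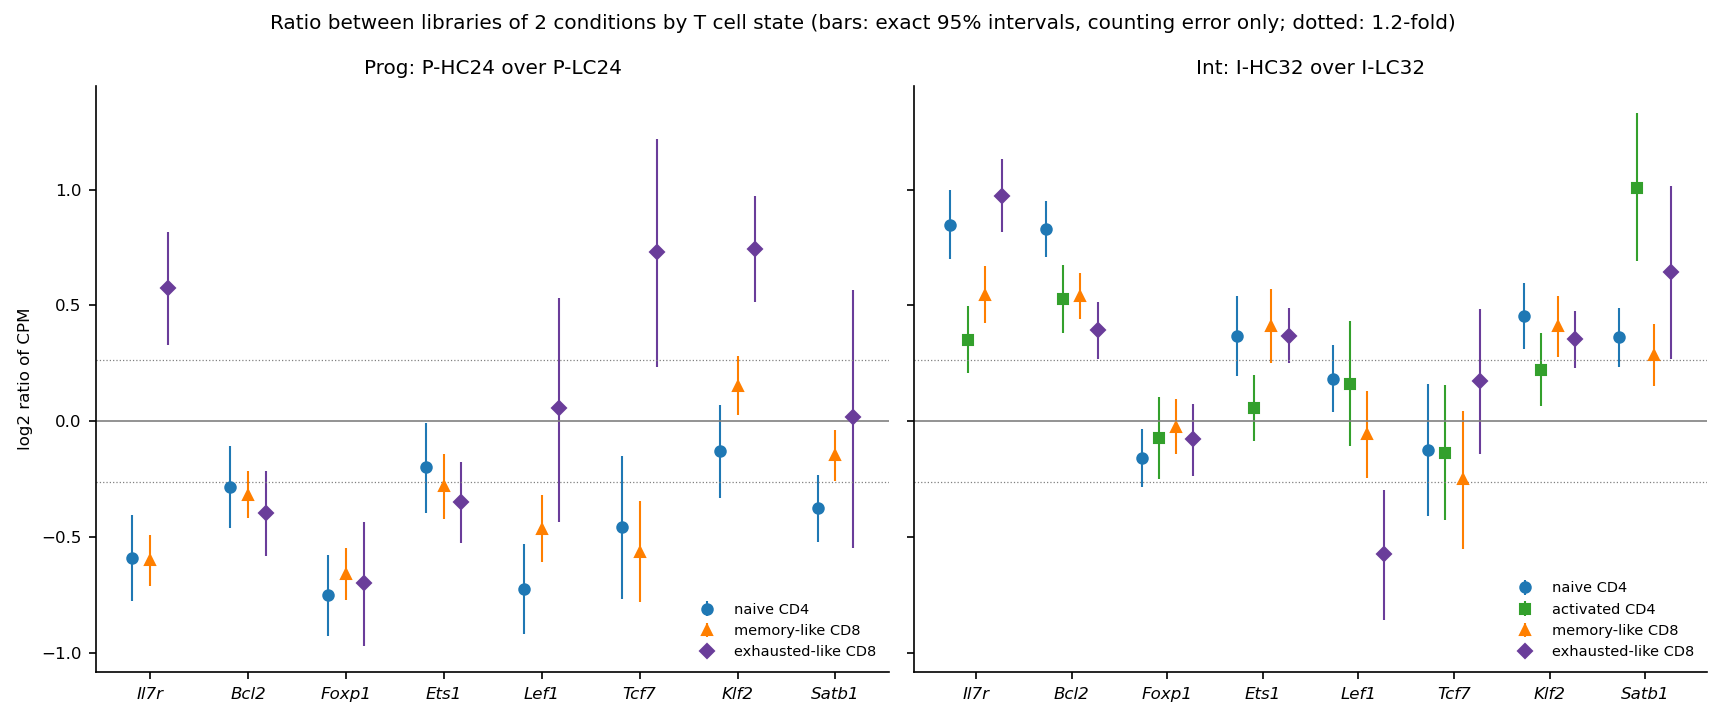
Log2 ratio of CPM between libraries in Prog (P-HC24 over P-LC24, left) and Int (I-HC32 over I-LC32, right), one marker per T cell state with exact 95% intervals for counting error only and dotted lines at 1.2-fold. Il7r and Bcl2 lie above the upper line in all 4 states in Int, and Foxp1 lies below the lower line in all 3 states in Prog.

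The levels behind both comparisons did not split by diet alone. Il7r in naive CD4 cells was high in P-LC24 and I-HC32 (1399.5 and 1582 CPM) and low in P-HC24 and I-LC32 (931 and 879). The mice kept at 0.05% cholesterol thus had less Il7r at week 32 than at week 24, at -0.67 (-0.82 to -0.53) in naive CD4 and -0.44 (-0.54 to -0.33) in memory-like cells, without a change of diet. Satb1 (-0.56) and Tcf7 (-0.46) were lower over the same time in naive CD4 cells of these mice. Their exhausted-like cells differed from this, with Il7r at 0.04 (-0.15 to 0.23), Tcf7 at 0.60 (0.24 to 0.98) and Klf2 at 1.01 (0.85 to 1.18). In the mice moved from 1.25% to 0.05%, Il7r was 0.77 (0.58 to 0.95) and Bcl2 1.18 (1.02 to 1.35) in naive CD4 cells at week 32 over week 24. The median of all genes was 0.26 in the latter comparison and 0.04 in the former. By length, the latter had medians of -0.11 under 10 kb, 0.19 from 10 to 50 kb and 0.51 from 50 kb. Those of the former were 0.15, 0.05 and 0.002 in naive CD4 cells. Bcl2 is in the longest class and Il7r in the middle one, and the part of length in these ratios was not tested. Foxp1 was lowest in P-HC24 and was at -0.16 in I-HC32 against I-LC32 in naive CD4 cells.

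State sizes differed between libraries, so the whole lineages were also compared at the same makeup of states. Exhausted-like cells were 24.1% of CD8 cells in P-LC24 (exact Clopper-Pearson interval 20.8% to 27.6%), 10.6% in P-HC24 (8.26% to 13.3%), 28.3% in I-LC32 (25.2% to 31.6%) and 42.1% in I-HC32 (36.8% to 47.6%). Over all CD8 cells Il7r was -0.38 in Prog and 0.65 in Int, and -0.41 and 0.73 at the same makeup. For Satb1 these were -0.17 and 0.26, and -0.28 and 0.47 at the same makeup. Naive cells were 56.8%, 44.7%, 42.6% and 36.3% of CD4 cells. Over all CD4 cells Lef1 was -0.82 in Prog and -0.74 at the same makeup. A share set by whether a UMI was seen depends on depth, and with gates on thinned cells, exhausted-like cells were 18.6% of CD8 cells in I-LC32 and 34.1% in I-HC32.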

How the data were processed

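Single cells of the 4 pooled FNA libraries were profiled with 10x Chromium Next GEM 3′ v3.1 chemistry. The authors deposited raw UMI counts, 1 matrix of genes by cells per library. The submitters' processing notes name Cell Ranger 9.0.1, Seurat 5.3 and GRCm39, and whether intronic reads were counted is not given in the sources used here. Cells with at least 500 UMIs, 300 genes and at most 10% mitochondrial UMIs were kept, and the highest Scrublet scores were removed at 0.8% per 1000 cells (scanpy 1.11.5). T cells were gated on raw UMIs of markers. Since several gates require 0 UMIs of a gene, they depend on depth. UMIs were summed per state and library, and states with at least 20 cells were tested with edgeR 4.0.16 (R 4.3.3, TMM, filterByExpr, library as a term, Benjamini-Hochberg adjustment, gate genes left out). DESeq2 1.42.0 was an alternative. Conditions were compared without a test as ratios of CPM, where both libraries held at least 50 cells, for genes with at least 100 UMIs over both that were detected in 10% or more of cells in one of them. Intervals are exact, at 95%, and cover counting error only. Other steps ran in Python 3.11.15 (pandas 2.3.3, numpy 2.4.6), with intervals from scipy 1.17.1 and figures from matplotlib 3.10.9. Gene positions are GENCODE on GRCm39. The test was checked on simulated data. The genes, lists and gates were chosen with earlier results of these data known. Named genes were the 8 genes, the 2 called genes of each list with the largest change and the 3 genes most like each of the 8. In all, 33 alternatives were planned and 5 added after seeing the data, among them the wider naive CD8 gate, which leaves out Nkg7 and Id2. Regulatory CD4 cells were too few to test. 1 gene of the naive gates, and the values that need it, are not reported here.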

Additional observations from a re-analysis of the deposited data

Results flagged for a closer look

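Of 24 pairs of a gene and a state, 8 had Prog and Int ratios past 1.2-fold in opposite directions. Both intervals were clear of 0, and all 8 were lower in Prog and higher in Int. The share of all genes that did so was not computed, so this count has no background. In the same states 41.0% to 51.7% of all compared genes were lower in Prog and 18.9% to 24.3% higher in Int. There was 1 library per condition, so the difference was not tested. In naive CD4 cells the Int ratio exceeded the Prog ratio by 1.44 on the log2 scale for Il7r (0.85 against -0.59), by 1.11 for Bcl2 (0.83 against -0.28) and by 0.74 for Satb1 (0.36 against -0.37). In memory-like CD8 cells it did so by 1.15 for Il7r, 0.86 for Bcl2 and 0.69 for Ets1. In exhausted-like CD8 cells the difference was 0.79 for Bcl2 and 0.72 for Ets1. The Prog ratios of Bcl2 and Ets1 in both CD8 states and of Bcl2 and Satb1 in naive CD4 cells turned positive relative to genes on the same side of 50 kb, and those of Il7r did not.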

How the results depend on the processing

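No paired analysis was possible because Prog and Int each compare 1 library with 1 library of other mice, and the weeks of a diet arm, which share mice, give 1 pair per arm. The tests between states already hold the library as a term. Of 600 fold changes of the 8 genes between states under the alternatives, 547 kept their direction and side of the threshold. With gates on thinned cells, where activated CD4 cells came from 2 libraries, the genes called numbered 952 in activated CD4 cells (1752 as reported) and 1475 in exhausted-like against memory-like cells (2214). The latter count was 1469 with DESeq2 and 3433 with plain totals. In memory-like against naive CD8 cells it was 314 without the library term and 362 to 528 with a library left out, lowest without I-LC32 (362) and P-HC24 (363), against 593 as reported, and 2 of the 8 genes were lower with thinned gates or without P-LC24. In naive CD8 against naive CD4 cells 207 genes were called without the library term and 243 to 310 with a library left out, lowest without P-HC24 (243) and I-LC32 (260), against 427 as reported. Of the 8 genes, 0 were lower without the library term, and 1 (without P-HC24) to 3 (without P-LC24) with a library left out. The cause of these changes was not tested.

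Small fold changes changed sign. Ets1 in activated against naive CD4 cells was 0.016 with thinned gates, -0.17 to 0.032 with a library left out, highest without P-LC24, and 0.23 with plain totals. In memory-like against naive CD8 cells Il7r was -0.028 and -0.0074 with mitochondrial limits of 5% and 20%, -0.0027 without doublet removal, -0.13 with thinned gates, -0.0088 without naive markers in the naive gates, -0.050 (I-LC32) to 0.055 (P-HC24) with a library left out, among them -0.033 for I-HC32, -0.0024 with DESeq2, -0.0035 with RLE factors and -0.00076 without the library term. In the same contrast Bcl2 was -0.043 with thinned gates, and Ets1 was 0.0081 at the 5% limit, -0.10 to 0.048 with a library left out, above 0 for P-LC24 (0.0012), P-HC24 (0.025) and I-LC32 (0.048), 0.035 without the filter, 0.0013 without the library term and 0.021 with plain totals. Satb1 there was -0.068 to 0.043 with a library left out, above 0 for P-HC24 (0.011) and P-LC24 (0.043), 0.036 without the filter and 0.022 with plain totals. In naive CD8 against naive CD4 cells Bcl2 was 0.077 and Klf2 -0.014 with thinned gates.

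In Prog, 9 ratios were lower on CPM without mitochondrial, ribosomal and receptor genes, 9 lower and 6 higher relative to the median gene, 6 lower from 1.5-fold, and 4 lower and 6 higher relative to genes on the same side of 50 kb. On that last scale Bcl2 was 0.22, 0.079 and 0.19 in naive CD4, memory-like and exhausted-like cells, Satb1 0.13 in naive CD4, and Ets1 0.11 and 0.23 in memory-like and exhausted-like cells. In Int, 5 ratios were higher and 0 lower from 1.5-fold. The naive share of CD4 cells in I-LC32 was 35.7% with thinned gates. The exhausted-like share of CD8 cells was 13.9% in P-HC24 and 32.0% in I-LC32 at the 5% mitochondrial limit and, with thinned gates, 18.6% in I-LC32 and 34.1% in I-HC32. Depth limits Satb1 in exhausted-like cells most, at 41 UMIs in P-HC24.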
